A study of Mus musculus with 9 samples.

Results

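The epidermal differentiation complex is a run of genes that are switched on together as keratinocytes mature, and it encodes most of the proteins of the cornified envelope. Members were taken by symbol: the late cornified envelope (Lce) genes, Sprr1a, Sprr1b, Sprr3 and Sprr4 of the small proline-rich family, loricrin (Lor), involucrin (Ivl), 7 S100 fused-type genes (Flg, Flg2, Hrnr, Rptn, Tchh, Tchhl1 and Crnn), and Crct1, Lelp1 and Kprp. The small proline-rich Sprr2 genes of the same complex were left out by the rule. This gave 37 of 55342 named genes, 21 of them Lce genes, all on chromosome 3 between 92080271 and 93471980 (GRCm38), a span of 1.39 Mb. Of the 37 members, 36 passed the expression filter. Lelp1, a late cornified envelope-like proline-rich gene, had 0 counts in all 9 libraries, and 3 counts over those libraries would be 0.00945 CPM.

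Poly(A) RNA came from biopsies of the inner lip (labial mucosa), and each of the strains B6, Tac111 and Tac146 gave 3 libraries of 27192359 to 46456500 counts. B6 and Tac111 are numbered replicates 1, 2 and 3 and Tac146 replicates 2, 3 and 4, and values below, in CPM (counts scaled to library size), follow that order within a strain. The labels state that the mice carried different mutations without naming them, that all were infected before biopsy (agent, dose and time not given in the sources used here), and give no age. They name the cells as T cells in both Tac strains and as type 1 innate lymphoid cells (ILC1) in B6, so against B6 the strain cannot be told apart from that label. The libraries looked like whole tissue: summed T cell markers came to 6.41 to 17.6 CPM and ILC1 and natural killer cell markers to 0.686 to 17.3 CPM, while the keratins Krt4 and Krt13 together came to 51486 to 91752 CPM. By strain mean, the T cell sum was highest for B6, labelled ILC1 (15.3 CPM), against 7.83 for Tac111 and 8.69 for Tac146. Cd3d, Cd3e and Cd3g stood at 0 in every Tac111 library, although these are labelled T cells. The mean ILC1 and natural killer cell sum was higher for B6 (12.5 CPM) than for Tac111 (0.737), but highest for Tac146 (15.4). Which cells the labels refer to was not tested. Nothing in the labels says that libraries came from separate animals, so each p-value rests on the spread among these libraries, part of which may be technical.

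As background, the cornified envelope is a protein shell built under the membrane of dying keratinocytes. Involucrin is laid down early, loricrin and the small proline-rich proteins are cross-linked onto it by transglutaminases, and Lce proteins are added late. Filaggrin-type proteins have a calcium-binding S100 domain followed by repeats, and pack keratin filaments or join the envelope. Oral mucosa cornifies in some places and not in others, and small proline-rich proteins and Krt4 with Krt13 are prominent in it.

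Promoters are printed first because related copies lie side by side here, and 1 of them (Lce3d) carries the largest called difference among the members. The promoters are reference sequence, not that of each strain, and any link to expression was not tested. RefSeq (GRCm38.p6) held a 300-base promoter window for 34 of the 37 members. Shown are 120 bases before to 30 bases after the annotated start of a pair of Lce1 genes, a pair of Lce3 genes and a pair of Sprr genes, read 5′ to 3′ on the gene's strand. Capitals mark the TATA-box-like stretch ATAAAA, with the G that follows it where present, and the family strings ACTGTCTCAC (Lce1) and GTTGTGAAAGCA (Lce3).
Lce1h: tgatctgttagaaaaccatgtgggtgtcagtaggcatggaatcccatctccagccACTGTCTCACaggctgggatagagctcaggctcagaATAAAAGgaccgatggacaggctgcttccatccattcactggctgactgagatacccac
Lce1i: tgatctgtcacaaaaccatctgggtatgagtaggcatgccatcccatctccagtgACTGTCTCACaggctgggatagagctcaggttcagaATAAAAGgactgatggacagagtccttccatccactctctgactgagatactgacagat
Lce3d: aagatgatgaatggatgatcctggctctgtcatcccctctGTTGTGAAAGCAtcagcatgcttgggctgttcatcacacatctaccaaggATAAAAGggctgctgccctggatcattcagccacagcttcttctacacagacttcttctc
Lce3e: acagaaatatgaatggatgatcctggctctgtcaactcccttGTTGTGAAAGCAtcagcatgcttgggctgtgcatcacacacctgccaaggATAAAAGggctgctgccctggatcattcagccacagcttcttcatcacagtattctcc
Sprr1a: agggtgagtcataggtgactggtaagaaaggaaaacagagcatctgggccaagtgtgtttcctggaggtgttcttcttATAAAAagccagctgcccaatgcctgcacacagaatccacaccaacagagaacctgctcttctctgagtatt
Sprr3: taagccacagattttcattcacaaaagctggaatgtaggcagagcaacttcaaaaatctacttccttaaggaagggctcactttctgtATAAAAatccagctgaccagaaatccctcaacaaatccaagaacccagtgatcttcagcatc

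These windows lie on chromosome 3 at 92765036 to 92765185 (Lce1h, minus strand), 92778870 to 92779019 (Lce1i, minus), 92957270 to 92957419 (Lce3d, plus), 92966941 to 92967090 (Lce3e, plus), 92485852 to 92486001 (Sprr1a, minus) and 92458691 to 92458840 (Sprr3, minus). ATAAAAG was found in 17 of 34 member windows on either strand, against 5.42% of 32851 promoter windows of that length. It stood 28 to 30 bases before the start in 15 of them, and at 216 bases in Sprr4 and 207 in Lce3f. ACTGTCTCAC was in 9 of 13 Lce1 windows and 0 of 6 Lce3 windows (0.14% of all windows, either strand), 53 to 65 bases before the start. GTTGTGAAAGCA was in 4 of 6 Lce3 windows and 0 of 13 Lce1 windows (0.01% of all windows), 76 to 80 bases before the start. The TATA-like string was picked after the windows were read and the family strings were picked from these same windows as the longest ones shared within a family, so the counts only describe the families. TGANTCA, the core bound by AP-1 factors, was in 9 of 34 windows (7.81% of all), none of them Lce1 or Lce3, and AACCNGTT, the Grainyhead-type core, in 1 of 34 (2.09%). The 300-base windows of Lce3d and Lce3e were 83.1% identical, and those of Lce1h and Lce1i 80.7%, while Lce3d and Lce1h shared 50.2%.

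Transcripts of Lce genes also share sequence, which limits how reads can be split. Of the stretches of 50 bases in annotated Lce3d transcripts, 49.3% occurred in another member, 45.9% in Lce3f. The range was 12.1 to 49.3% over 6 Lce3 genes and 0 to 25.4% over 14 Lce1 genes, and 0 for the 17 other members. Estimated counts were not whole in 19 of 20 Lce1 and Lce3 genes, as they are when a read fits several genes. Single values of Lce genes are therefore uncertain, and family sums are given beside them. Flg, Hrnr, Rptn and Tchh overlap other annotated genes, and the strand setting of the counting is not given in the sources used here.

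Members together took 1.67 to 2.48% of all counts in a library. Per length (CPM per kb of exon, mean of 9 libraries), Sprr3 was highest at 3166, followed by Sprr1a at 2311, Lce3f at 1317, Lce3a at 1237, Lor at 1224, Crct1 at 1105 and Rptn at 1090. Ranges overlapped between Sprr3, from 2220 to 4203, and Sprr1a, from 1752 to 2815 CPM per kb. Lce3f, from 978.4 to 1621, lay below every Sprr1a library and overlapped Lor, from 900.6 to 1481. At the low end were Ivl at 18.2, Lce6a at 14, Sprr4 at 12.5, Flg at 8.7 and Flg2 at 7.06 CPM per kb. Flg and Flg2 have long repeated exons (18829 and 20803 exonic bases), and reads from repeats can be hard to place.

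Member counts are read against the share of all genes called. By edgeR's quasi-likelihood test with Benjamini-Hochberg adjustment over 16523 genes and a threshold of 0.05, 0 of 36 members were called in Tac111 against B6, where 3.81% of all genes were called (1.02% higher and 2.8% lower). There, 1 member (Kprp) had an unadjusted p under 0.05, as had 21.8% of all genes, and DESeq2 called that 1. In Tac146 against B6, edgeR called 0 of 36 against 0.303% of all genes (0.194% higher and 0.109% lower). Here 3 members (Lce3d, Lce3b and Flg2) had an unadjusted p under 0.05, as had 6.96% of all genes, and DESeq2 called 1 (Lce3d). In Tac111 against Tac146, 2 of 36 (5.6%) fell, Lce3d and Kprp, and 0 rose, against 8.89% of all genes called, 6.27% lower and 2.62% higher. An unadjusted p under 0.05 was found for 5 members and for 30.9% of all genes, and DESeq2 called 3 (Flg2 too). The 3 comparisons share libraries, so their values are set side by side and not counted as separate evidence.

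All 36 log2 fold changes lay between -1 and 1 in each comparison, with medians of 0.04 in Tac111 against B6, 0.15 in Tac146 against B6 and -0.10 in Tac111 against Tac146, beside medians over all genes of 0.02, 0.01 and 0.02. The median size of the log2 fold change, without its sign, was 0.10, 0.15 and 0.16 over members and 0.19, 0.12 and 0.23 over all genes, so it was larger for members in Tac146 against B6 and smaller in the other comparisons. The 95% interval lay wholly inside a 2-fold change either way for 30, 29 and 29 of the 36 members. In Tac146 against B6, 33 of 36 values were above 0, with no member called, and the interval included 0 for 33 members. Lce genes of a family varied together by library and share reads, so these signs are not separate observations. All libraries of one strain lay beyond all of the other for 1 member in Tac111 against B6 (Kprp, lower), where 29.6% of all genes did so, 13.7% higher and 15.8% lower. The count was 1 in Tac146 against B6 (Lce3d, higher), where it was 12.7% of all genes, 6.36% higher and 6.29% lower, and 3 in Tac111 against Tac146 (Kprp, Lce3d and Lce1k, lower), where it was 35.5% of all genes, 17.1% higher and 18.4% lower.

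**Figure D1:**
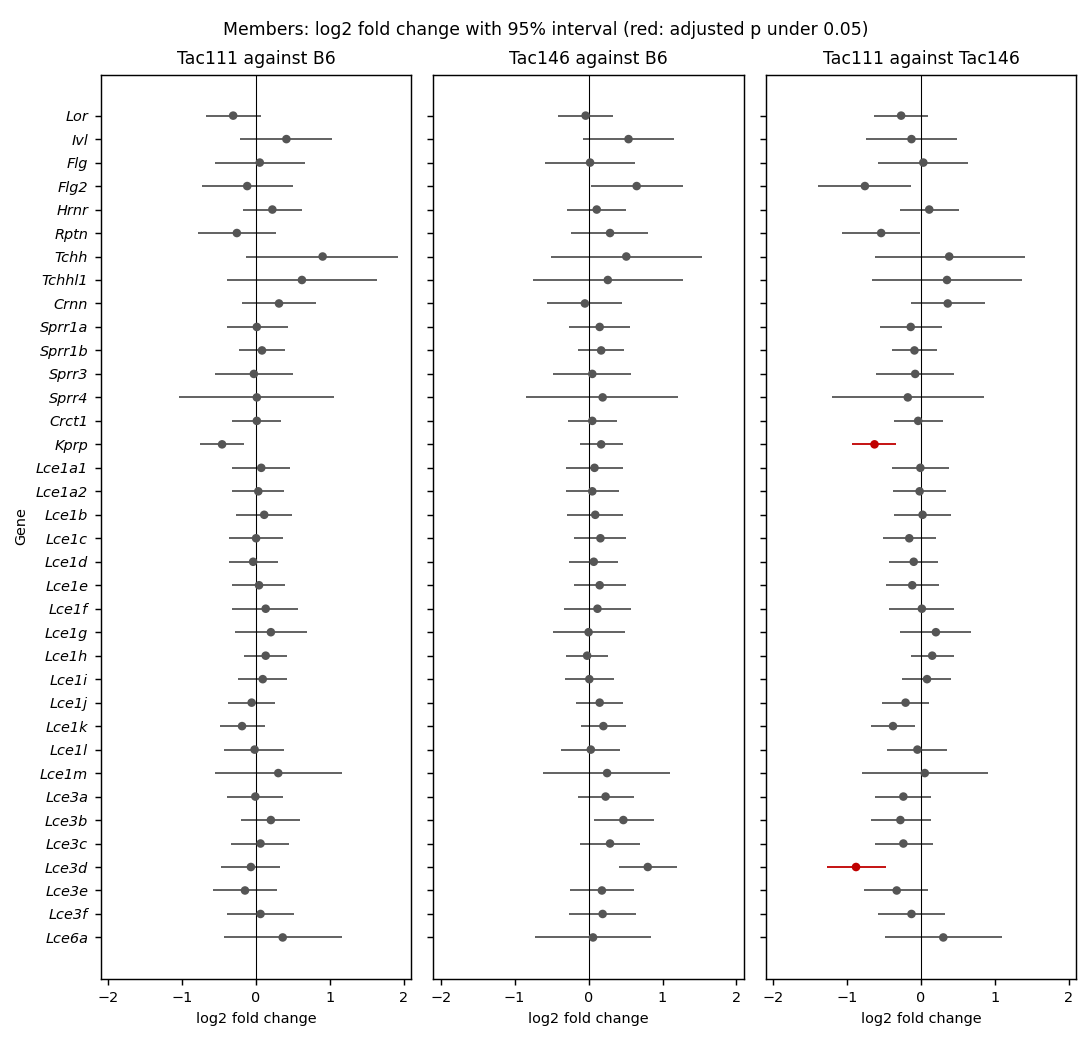
Log2 fold change (x axis) of the 36 members that passed the filter (y axis) in each of the 3 comparisons, as points with 95% intervals from edgeR. Only Lce3d and Kprp in Tac111 against Tac146 are drawn in red (adjusted p under 0.05), at -0.88 and -0.63, and the widest intervals belong to Tchh, Tchhl1 and Sprr4.

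Spread between libraries of a strain was wide for these genes. The range of the 3 strain means exceeded the widest range within a strain for 2 of 36 members (5.6%), against 20.6% of 16385 genes. The biological coefficient of variation, edgeR's estimate of spread beyond counting error, had a median of 16.1% over members and 12.6% over all genes, and 34 of 36 members were above the latter. It was lowest for Lce1h at 12.3% and highest for Sprr4 at 39.0%, followed by Tchh and Tchhl1 at 38.6% each. For the 1594 genes averaging at least 100 CPM it was 10.7%.

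**Figure D2:**
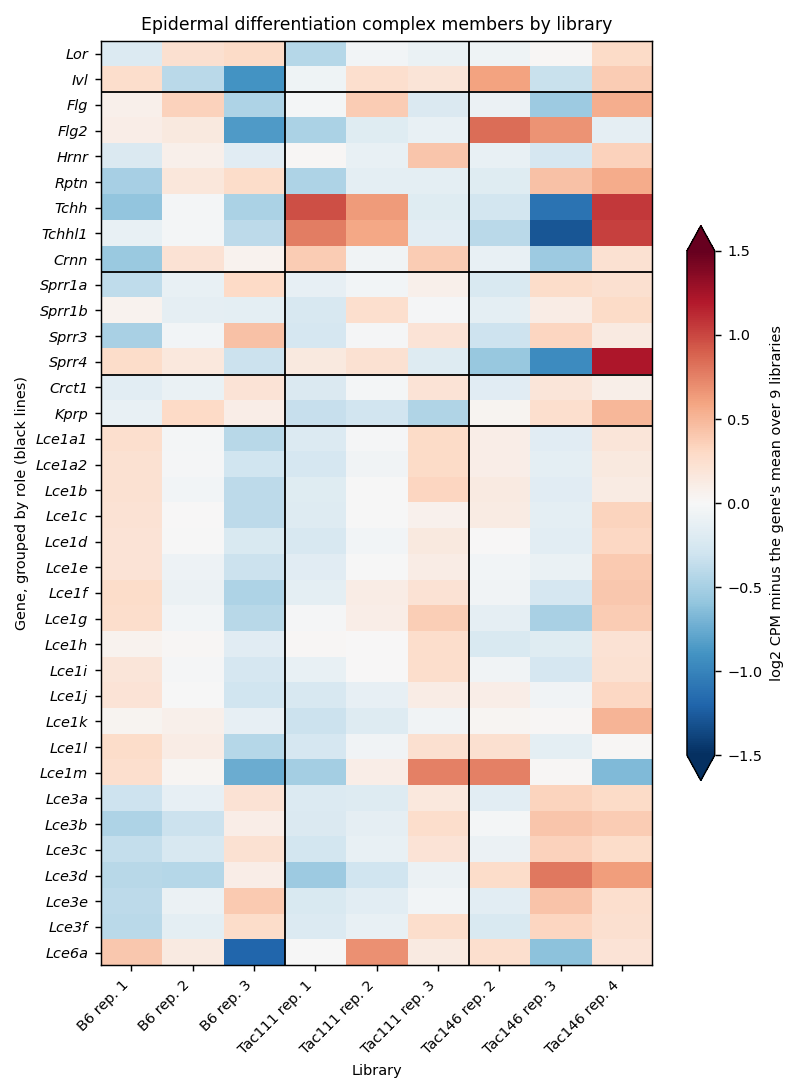
Each row is a member and each column a library, coloured by log2 CPM minus the gene's mean over the 9 libraries (red above, blue below). Most Lce1 genes share 1 order of libraries within a strain and most Lce3 genes another, and B6 replicate 3 is blue for the Lce1 genes and red for the Lce3 genes.

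Loricrin, the most abundant envelope protein of skin, stood at 1872, 2542 and 2634 CPM in B6, at 1602, 2083 and 2010 in Tac111 and at 2050, 2178 and 2625 in Tac146. The strains overlapped, with the lowest library in Tac111 and the highest in B6. Its log2 fold changes were -0.31 in Tac111 against B6 (SE 0.17, 95% interval -0.68 to 0.06), -0.04 in Tac146 against B6 (SE 0.17) and -0.27 in Tac111 against Tac146 (SE 0.17), with edgeR adjusted p = 0.300, 0.967 and 0.294. Involucrin, the early scaffold, was far lower at 40.1, 25.3 and 18 CPM in B6, 32.2, 40 and 38.5 in Tac111 and 50.8, 26.7 and 43.7 in Tac146. All 3 strains overlapped again, and B6 replicate 3 was lowest. Its mean was 27.8 CPM in B6 and 40.4 in Tac146, a log2 fold change of 0.54 with an interval of -0.08 to 1.16 (edgeR adjusted p = 0.760).

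Of the S100 fused-type genes, Rptn (repetin, an envelope precursor) was the most abundant per length, with 3094, 4934 and 5288 CPM in B6, 3189, 3975 and 3969 in Tac111 and 3851, 5930 and 6456 in Tac146. The strains overlapped, and the log2 fold change in Tac111 against Tac146 was -0.54 (SE 0.24, interval -1.07 to -0.02, edgeR adjusted p = 0.150). Hrnr (hornerin) stood at 687.4, 843.9 and 712.6 CPM in B6, 808.6, 741.9 and 1065 in Tac111 and 736.5, 670.3 and 1014 in Tac146. Crnn (cornulin, a squamous epithelial protein abundant in oesophagus and mouth) stood at 138.3, 236.6 and 211.1 CPM in B6, 265.4, 195.4 and 264.7 in Tac111 and 187.3, 139.4 and 237.6 in Tac146. Neither gene separated any pair of strains.

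Filaggrin (Flg), whose processed units bundle keratin and later release amino acids that hold water, stood at 167.8, 201.6 and 115 CPM in B6, 156.1, 207 and 137.3 in Tac111 and 149.2, 108.8 and 232 in Tac146. Its relative Flg2 stood at 148.5, 152.8 and 77 CPM in B6, 99.3, 122.3 and 127.6 in Tac111 and 246.7, 221.1 and 125.5 in Tac146. Tac146 replicates 2 and 3 were higher in Flg2 than every other library, and replicate 4 was not, while Flg was highest in replicate 4. The ratio of Flg2 to Flg was accordingly 1.65, 2.03 and 0.541 in Tac146, and 0.591 to 0.929 in the other strains. In Tac111 against Tac146 the log2 fold change of Flg2 was -0.76 (SE 0.28, interval -1.39 to -0.14, edgeR adjusted p = 0.0992). DESeq2 called it (adjusted p = 0.0316), and so did edgeR without Tac146 replicate 4 (-1.01, adjusted p = 0.0369). That replicate also had the lowest skeletal muscle sum (16779 CPM, against 24608 or more elsewhere), and the part of tissue content in this was not tested. In bulk tissue, fewer cells of a type and less RNA per cell cannot be told apart.

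Tchh (trichohyalin) and Tchhl1 sit at the far end of the complex, and Tchh is a protein of the inner root sheath of hair follicles. Tchh stood at 309.5, 455.1 and 335.6 CPM in B6, 912.2, 727.7 and 411.1 in Tac111 and 385.5, 215.9 and 969.3 in Tac146. Tchhl1 stood at 48.4, 51.4 and 40 CPM in B6, 89.3, 78.1 and 47 in Tac111 and 39.4, 21.5 and 106.4 in Tac146. Both genes had their highest and their lowest library within Tac146. The 27 hair follicle markers other than Tchh had a sum of 2684, 2413 and 2133 CPM in B6, 5357, 4440 and 3027 in Tac111 and 2440, 1160 and 4605 in Tac146. Both genes had that order of libraries within each Tac strain but not within B6. Of all 28 hair follicle genes, 1 (Krt32, 3.6% against 3.81% of all genes) was called higher in Tac111 against B6. The median log2 fold change over the list was 0.84. In that comparison 10 of the 28 had an unadjusted p under 0.05, as had 21.8% of all genes, and DESeq2 called 2. In Tac111 against Tac146, 1 (Krt32, against 8.89%) was called higher, with a median of 0.59. There, 4 had an unadjusted p under 0.05, as had 30.9% of all genes, and DESeq2 called 1. The call of Krt32 against B6 was lost without B6 replicates 2 or 3 or any 1 Tac111 library, and that against Tac146 without B6 replicate 2, any 1 Tac111 library or Tac146 replicate 3. Tchh as a ratio to the sum of the 27 other markers ran from 0.115 to 0.21, while Tchh itself spanned 4.49-fold. The part of hair follicle content in the spread of Tchh was not tested. Log2 fold changes of Tchh were 0.90 in Tac111 against B6 (SE 0.46, interval -0.13 to 1.92), 0.51 in Tac146 against B6 (SE 0.46) and 0.38 in Tac111 against Tac146 (SE 0.46), with edgeR adjusted p = 0.283, 0.821 and 0.596. Those of Tchhl1 were 0.62, 0.26 and 0.35 (SE 0.46 each), with edgeR adjusted p = 0.445, 0.907 and 0.625. Without Tac146 replicate 4 the Tac146 values fell below B6 (-0.29 for Tchh and -0.61 for Tchhl1), and Tchhl1 was called higher in Tac111 than in Tac146 (1.22, edgeR adjusted p = 0.0362).

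**Figure D3:**
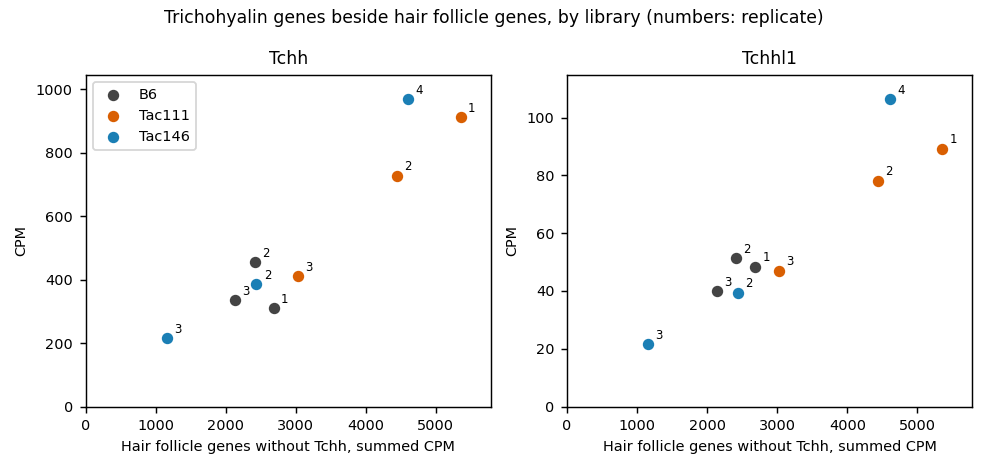
CPM of Tchh (left) and Tchhl1 (right) on the y axis against the summed CPM of 27 hair follicle genes without Tchh on the x axis, 1 point per library, coloured by strain and numbered by replicate. In Tac111 and Tac146 both genes follow the order of the hair follicle sum, in B6 they do not, and the sum runs from Tac146 replicate 3 at 1160 to Tac111 replicate 1 at 5357 CPM.

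Small proline-rich genes bridge other envelope proteins and are well known in mouth and oesophagus. Sprr3 stood at 2712, 3684 and 5136 CPM in B6, 3196, 3739 and 4389 in Tac111 and 3066, 4744 and 4159 in Tac146. Sprr1a stood at 1412, 1697 and 2269 CPM in B6, 1688, 1789 and 1947 in Tac111 and 1573, 2224 and 2166 in Tac146. In B6 and Tac111 both genes were lowest in replicate 1 and highest in replicate 3, and strain means differed by less than the spread within B6. Sprr1b was lower, at 76.5, 67.1 and 66.6 CPM in B6, 62.2, 87.6 and 72.6 in Tac111 and 66.4, 80 and 90 in Tac146. Sprr4 was near the limit of use, at 3.2, 2.96 and 2.12 CPM in B6, 2.95, 3.11 and 2.33 in Tac111 and 1.79, 1.38 and 6.17 in Tac146, with both its extremes in Tac146.

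The Sprr2 genes, which lie between Lelp1 and Sprr1b (92215799 to 92433925), did not follow their neighbours. Summed, they reached 1401 to 2292 CPM in the B6 libraries. The range was 36.7 to 51.8 CPM for Tac111 and 6508 to 12365 CPM for Tac146, while Sprr1a, Sprr1b and Sprr3 together stood at 4201 to 7472, 4946 to 6409 and 4705 to 7048 CPM. The log2 ratio of the Sprr2 sum to the sum of those 3 genes was -1.53 ± 0.58 in B6, -7.02 ± 0.06 in Tac111 and 0.44 ± 0.53 in Tac146 (SD, n = 3; exact permutation test, two-sided p = 0.1 for each pair, the smallest that 3 against 3 allows). Sprr2k, the Sprr2 gene nearest to Sprr1b, was not called in any comparison (log2 fold changes 0.35, 0.09 and 0.26), as was also the case for Sprr1b itself.

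**Figure D4:**
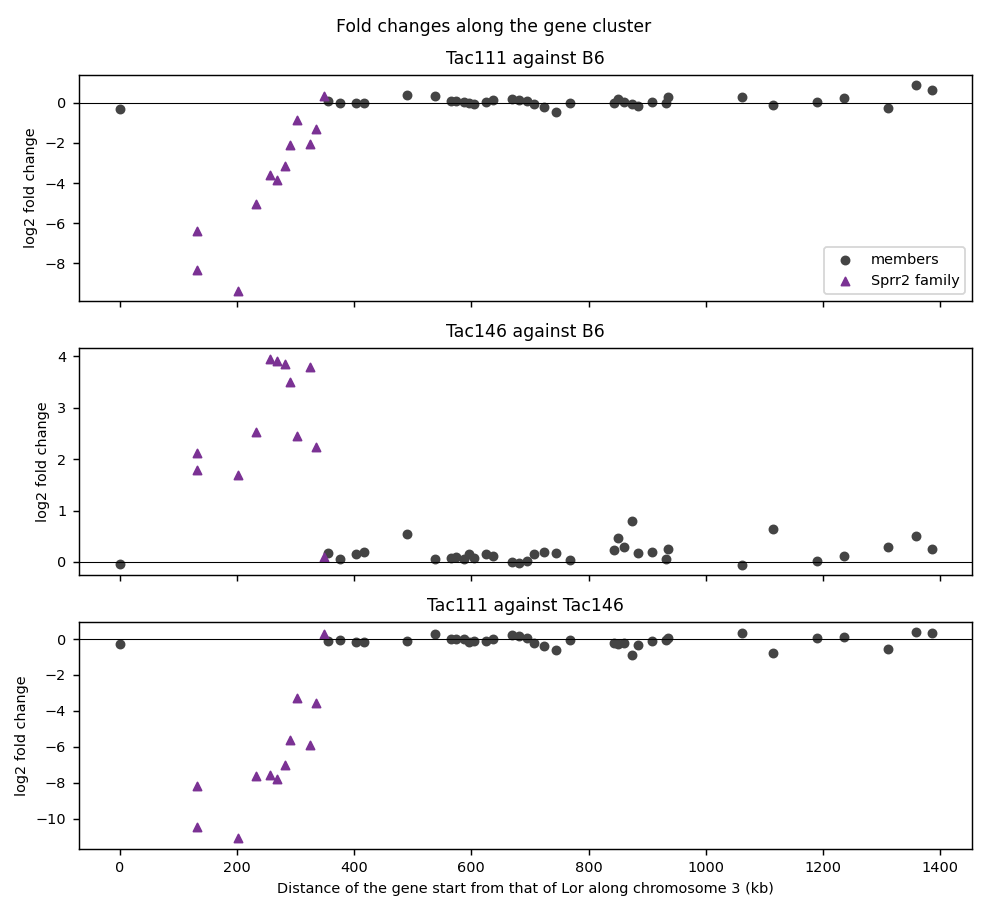
Log2 fold change (y axis, scale differs by panel) of members (circles) and Sprr2 genes (triangles) by distance of the gene start from that of Lor in kb (x axis), 1 panel per comparison. Members lie within 1 log2 unit of 0 along the whole complex, and Sprr2 genes reach far beyond that range, 11 of 12 called lower in Tac111 against Tac146.

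Crct1, a cysteine-rich C-terminal gene within the Lce stretch, was among the steadiest members, at 779.3, 810.1 and 1002 CPM in B6, 746, 853.3 and 1005 in Tac111 and 770.2, 987.8 and 925 in Tac146. Kprp (keratinocyte proline-rich protein, chromosome 3, 92823074 to 92827247) stood at 305.5, 404.9 and 353 CPM in B6, 260, 270.5 and 242.2 in Tac111 and 339.7, 394 and 465.3 in Tac146. Every Tac111 library was below every library of the other strains, and B6 and Tac146 overlapped. It fell in Tac111 against Tac146, with a log2 fold change of -0.63 (SE 0.13, interval -0.93 to -0.34, edgeR adjusted p = 0.0221), 1.55-fold. Against B6 the value was -0.46 (SE 0.13, edgeR adjusted p = 0.0924), which passed with DESeq2 (adjusted p = 0.0191) and without Tac146 replicate 4 (edgeR adjusted p = 0.0448). The call against Tac146 was lost without Tac111 replicates 1, 2 or 3 or Tac146 replicate 3 (edgeR adjusted p = 0.0520, 0.0589, 0.0804 and 0.0609).

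The 6 Lce3 genes, members of the family that human skin raises after barrier injury, shared their highest library in each strain. Their sum was 2224, 2568 and 3438 CPM in B6, 2471, 2620 and 3272 in Tac111 and 2658, 3786 and 3560 in Tac146, and replicate 3 was the highest library of its strain for all 6 genes in each strain. Lce3f, the most abundant, stood at 597.8, 717.4 and 956.7 CPM in B6, 684.4, 733 and 953.7 in Tac111 and 673.6, 990.2 and 933.7 in Tac146. Lce3a stood at 539.2, 614 and 777.1 CPM in B6, 580.1, 586.6 and 748.6 in Tac111 and 602.5, 845.6 and 816.3 in Tac146. Both overlapped between all strains. Lce3e stood at 382.2, 473.7 and 659.5 CPM in B6, 429.9, 449.5 and 486.9 in Tac111 and 450.5, 674.9 and 597.2 in Tac146. For Lce3c the values were 288.7, 313.9 and 432.4 CPM in B6, 306.1, 342.7 and 426.6 in Tac111 and 348.6, 470.8 and 447.2 in Tac146. Lce3b was at 333.1, 366.2 and 493.1 CPM in B6, 394.6, 418.3 and 552.4 in Tac111 and 448.7, 612.4 and 595 in Tac146, with a log2 fold change of 0.47 in Tac146 against B6 (SE 0.18, interval 0.07 to 0.88, edgeR adjusted p = 0.639). The strains overlapped for all 3.

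Lce3d (chromosome 3, 92957390 to 92958505) was the member in which strains differed most. It stood at 83.1, 82.3 and 118.8 CPM in B6, 75.9, 90.2 and 104.2 in Tac111 and 134, 191.6 and 170.9 in Tac146. Each Tac146 library was above each library of the other strains, and B6 and Tac111 overlapped. In Tac111 against Tac146 it fell, with a log2 fold change of -0.88 (SE 0.18, interval -1.27 to -0.48, edgeR adjusted p = 0.0187), and the 3-strain F test of edgeR also passed (adjusted p = 0.0239). In Tac146 against B6 the log2 fold change was 0.80 (SE 0.18, interval 0.41 to 1.20, edgeR adjusted p = 0.180), and DESeq2 called it (adjusted p = 0.00379). The call against Tac146 was lost without Tac111 replicates 1 or 2 or Tac146 replicate 3 (edgeR adjusted p = 0.0538, 0.0625 and 0.0645). As a share of the other 5 Lce3 genes, a ratio chosen after the values were seen, Lce3d came to 3.88, 3.31 and 3.58% in B6, 3.17, 3.57 and 3.29% in Tac111 and 5.31, 5.33 and 5.04% in Tac146. Reads shared with Lce3f and Lce3e bear on this share, and their part in it was not tested.

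**Figure D5:**
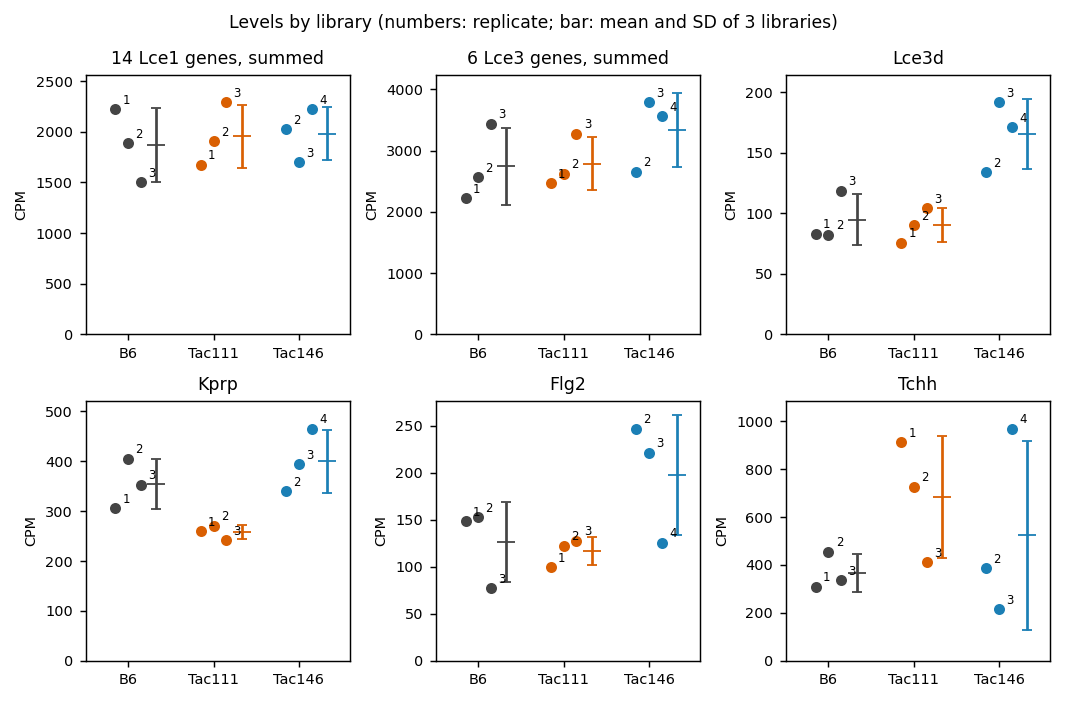
CPM by library (points, numbered by replicate) for the summed Lce1 and Lce3 genes, Lce3d, Kprp, Flg2 and Tchh, grouped by strain, with the mean and SD of 3 libraries beside them. Lce3d is highest in the 3 Tac146 libraries (134 to 191.6), Kprp is lowest in the 3 Tac111 libraries (242.2 to 270.5), and the other panels overlap between strains.

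The 14 Lce1 genes, expressed in cornified skin, had another order of libraries, shared by most but not all of them. Their sum was 2222, 1890 and 1500 CPM in B6, 1675, 1905 and 2290 in Tac111 and 2026, 1699 and 2222 in Tac146. In B6, replicate 3 was the lowest library for all 14 Lce1 genes and the highest for all 6 Lce3 genes. In Tac146, replicate 3 was lowest for 12 of 14 Lce1 genes (not for Lce1h and Lce1m) and again highest for the Lce3 genes, whereas in Tac111 replicate 3 was the highest for both families. The ratio of the Lce3 to the Lce1 sum was 1.0, 1.36 and 2.29 in B6, 1.48, 1.38 and 1.43 in Tac111 and 1.31, 2.23 and 1.60 in Tac146. Krt1 and Krt10, keratins of cornified epithelium, were together lowest in B6 replicate 3 (7246 CPM) and Tac146 replicate 3 (6782 CPM) and stood at 9234 CPM or more in the other libraries. Krt4 and Krt13, keratins of oral epithelium, together stood at 51486, 65049 and 91752 CPM in B6, 52745, 60396 and 64526 in Tac111 and 58388, 79052 and 81789 in Tac146. They followed the order of the ratio in B6 but not in Tac111, where the highest ratio went with the lowest sum, nor in Tac146, where replicate 4 had the highest sum. Where in the lip each biopsy was taken is not given in the sources used here, and its part in this ratio was not tested.

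Among single Lce1 genes, Lce1a1 was the most abundant, at 318.1, 260.7 and 200.2 CPM in B6, 231.7, 262.7 and 325.5 in Tac111 and 285.8, 236.7 and 301.8 in Tac146. Lce1h, whose promoter is printed above, varied least, at 115.4, 112.6 and 98.3 CPM in B6, 112.4, 111.7 and 132.9 in Tac111 and 94.9, 97.4 and 128.7 in Tac146. Neither separated the strains. Lce1k stood at 42.3, 43.4 and 37.8 CPM in B6, 32.9, 36 and 39.7 in Tac111 and 41.7, 41.5 and 58.2 in Tac146, so that Tac111 was below Tac146 in every library. Its log2 fold change there was -0.38 (SE 0.14, interval -0.68 to -0.08, edgeR adjusted p = 0.0923). Lce1m, which lies apart from the other Lce1 genes beyond the Lce3 genes, varied most, at 107.4, 91.9 and 54 CPM in B6, 63.4, 96.4 and 151.8 in Tac111 and 152.3, 91.5 and 56.7 in Tac146. The other 10 Lce1 genes ran from 55.4 CPM (Lce1j) to 287.3 CPM (Lce1a2) over the libraries. Lce6a was low, at 14, 11.6 and 4.61 CPM in B6, 10.5, 16.9 and 11.6 in Tac111 and 12.5, 6.88 and 12.1 in Tac146, with its lowest value in B6 replicate 3 like the Lce1 genes.

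Genes that build and regulate the envelope were read from the same fit. Markers of other tissue parts were higher in Tac111 than in Tac146 by their medians: 0.46 on the log2 scale over 10 skeletal muscle genes, 0.70 over 11 sebaceous gland genes and 0.59 over 28 hair follicle genes. Of the muscle genes edgeR called 0, and 6 had an unadjusted p under 0.05, as had 30.9% of all genes. The summed muscle genes were at 30067, 28247 and 30736 CPM in Tac111 and 24608, 26138 and 16779 in Tac146, without overlap. The other 2 sums overlapped: sebaceous gland genes were at 1387, 2401 and 1535 CPM in Tac111 and 1798, 1098 and 922 in Tac146. Hair follicle genes were at 6269, 5168 and 3438 CPM in Tac111 and 2825, 1376 and 5574 in Tac146. The part of tissue content in the list values below was not tested. Of 35 enzymes and proteases of cornification, 4 fell in Tac111 against Tac146 and 0 rose (11.4% called, 8.89% of all genes; median log2 fold change -0.24 against 0.02 for all genes). They were Tgm1, the transglutaminase that cross-links the envelope (-0.54, SE 0.13, edgeR adjusted p = 0.0359), Abca12, which moves lipids into lamellar granules (-0.61, SE 0.13, edgeR adjusted p = 0.0236), Sdr9c7, needed for the lipid coat (-0.58, SE 0.12, edgeR adjusted p = 0.0199), and the protease gene Klk13 (-0.61, SE 0.17, edgeR adjusted p = 0.0476). Of 16 alternative analyses, the call held in 11 for Sdr9c7, 11 for Abca12, 8 for Tgm1 and 6 for Klk13. Tgm1 went with a mean of 244.2 CPM in Tac111 and 354.8 in Tac146. Without Tac111 replicate 1, Tac111 replicate 3 or Tac146 replicate 3 the count was 0, without Tac111 replicate 2 or Tac146 replicate 4 it was 1, without B6 replicate 2 it was 2, and without Tac146 replicate 2 it was 9. EdgeR called 0 of these genes in Tac111 against B6 (2 at an unadjusted p under 0.05, 1 by DESeq2) and 0 in Tac146 against B6 (5 and 0).

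Of 21 corneodesmosome and junction genes, 5 fell in Tac111 against Tac146 and 0 rose (23.8%, against 8.89% of all genes; median log2 fold change -0.33). Dsg3 and Dsg1b, the cadherins of desmosomes, had values of -0.87 (SE 0.17, edgeR adjusted p = 0.0161) and -0.94 (SE 0.24, edgeR adjusted p = 0.0390), Dsp (desmoplakin, their anchor to keratin) -0.61 (SE 0.16, edgeR adjusted p = 0.0416) and Tjp1 (a tight junction scaffold) -0.71 (SE 0.19, edgeR adjusted p = 0.0457). Of 16 alternative analyses, the call held in 13 for Dsg3, 8 for Dsg1b, 7 for Tjp1 and 6 for Dsp. Jup was the fifth gene called. The count was 0 without Tac111 replicate 3 or Tac146 replicate 3, 1 without B6 replicate 2, Tac111 replicate 2 or Tac146 replicate 4, 2 without B6 replicate 3 or Tac111 replicate 1, 3 without B6 replicate 1 and 9 without Tac146 replicate 2. Against B6, edgeR called 0 of 21 in Tac111 (7 at an unadjusted p under 0.05, 2 by DESeq2) and 0 in Tac146 (1 and 0).

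Of 28 transcription factors of late differentiation, 3 fell and 1 rose in Tac111 against Tac146 (14.3%, against 8.89% of all genes; median log2 fold change -0.25). Klf4, required for the skin barrier, fell, with a log2 fold change of -0.47 (SE 0.08, edgeR adjusted p = 0.0105), from a mean of 411.6 CPM in Tac146 to 296.5 in Tac111. Maf, a driver of late epidermal genes, had -0.60 (SE 0.13, edgeR adjusted p = 0.0226), the epithelial factor Elf3 -0.95 (SE 0.23, edgeR adjusted p = 0.0323) and Irf3, better known for interferon induction, 0.34 (SE 0.09, edgeR adjusted p = 0.0456). Of 16 alternative analyses, the call held in 15 for Klf4, 12 for Maf, 10 for Elf3 and 5 for Irf3. The count of factors called was 1 without Tac111 replicates 2 or 3, 2 without Tac111 replicate 1, Tac146 replicate 3 or Tac146 replicate 4, and 8 without Tac146 replicate 2. Against B6, edgeR called 0 of 28 in Tac111 (6 at an unadjusted p under 0.05, 2 by DESeq2) and 0 in Tac146 (4 and 0). Of 8 keratins of cornified skin, 1 was called in Tac111 against Tac146 (12.5%, against 8.89% of all genes, median log2 fold change 0.07). Krt2, a late keratin of thick cornified epithelium, stood at 950.2 ± 164.6 CPM in Tac111 and 209.2 ± 79.7 in Tac146 (SD, n = 3). It rose by 2.18 (SE 0.36, edgeR adjusted p = 0.00642). Krt77, Krt78 and Krt80 went the other way (-0.91, -0.48 and -0.36) and were not called by edgeR. In this list 4 genes had an unadjusted p under 0.05, and DESeq2 called 2. Lor, Flg and the 14 Lce1 genes were not called in Tac111 against Tac146. Against B6, edgeR called 0 of 8 keratins in Tac111 (2 at an unadjusted p under 0.05, 0 by DESeq2) and 0 in Tac146 (1 and 0).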

How the data were processed

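Labial mucosa libraries (9, in 3 strains grouped by their titles) were deposited as RSEM expected counts per gene, which the authors estimated after STAR alignment to GRCm38 (per the submitters' processing notes; versions, annotation and strand setting not given in the sources used here). Expected counts were rounded. EdgeR 4.0.16 (R 4.3.3) fitted 1 mean per strain over all 9 libraries, with TMM factors, filterByExpr (16523 genes kept) and 6 residual degrees of freedom. Benjamini-Hochberg adjustment covered all genes tested. SEs were |log2 fold change| over the square root of F. CPM used TMM-scaled totals, which ran from 27192359 to 46456500 before scaling. DESeq2 1.42.0 and 15 other alternatives were run. Positions and exonic lengths came from GENCODE M21. In data simulated for Tac111 against Tac146 over 16523 genes, the fit recovered 29.9% of genes changed 1.5-fold, 74.6% of those changed 2-fold and 93.9% of those changed 4-fold. The 200 changed genes were drawn at random from all genes tested, whereas 1469 genes were called in the data. These shares therefore need not hold for the members. The members and the gene lists were chosen with earlier results of these data known. The naming rule covered every member and, per list, up to 4 genes with the smallest 3-strain p. It asked for every library's value of each member, and 10 Lce1 genes are given by their range instead.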

Additional observations from a re-analysis of the deposited data

How the results depend on the processing

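Over all genes, 630 were called in Tac111 against B6, 1161 with DESeq2, 1020 with no filter on low counts and 295 to 958 with 1 library left out. In Tac146 against B6 the number was 50, with DESeq2 131, with no filter 129, with only the 6 libraries compared 26, and 33 to 64 with 1 left out. In Tac111 against Tac146 it was 1469, with DESeq2 2586, with the replicate number as a block 632, with 6 libraries 641, and 470 to 1829 with 1 left out. Members called in Tac111 against B6 were 0, and 1 with DESeq2, with no filter or with the replicate block (Tchhl1), and 0 to 1 with 1 library left out. In Tac146 against B6 they were 0, and 1 (Lce3d) with DESeq2 or no filter. In Tac111 against Tac146 they were 2, with DESeq2 or the block 3 (the block called Lce3d, Tchh and Tchhl1), and 0 to 4 with 1 left out, 0 without Tac111 replicates 1 or 2 or Tac146 replicate 3, 1 (Lce3d) when Tac111 replicate 3 was dropped and 4 (Flg2, Kprp, Lce3d and Tchhl1) when Tac146 replicate 4 was.

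Cornification enzymes called in Tac111 against B6 were 0, with DESeq2 or no filter 1 and with the block 2. In Tac111 against Tac146 they were 4, with DESeq2 8, no filter 7, block 0, 6 libraries 2, and 0 to 9 with 1 left out. Junction genes were 0 and, with DESeq2 or no filter, 2 against B6. Against Tac146 they were 5, with DESeq2 8, no filter 9, block 0, 6 libraries 1, and 0 to 9 with 1 left out. Transcription factors in Tac111 against B6 were 0, with DESeq2 2, with no filter, the block or 6 libraries 1, and 0 to 1 with 1 left out. Against Tac146 they were 4, with DESeq2 8, no filter 7, block 1, 6 libraries 2, and 1 to 8 with 1 left out.

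Fold changes under each of the 16 alternatives were tabulated for 10 members, a choice made after their values were seen. The adjusted p of Lce3d in Tac111 against Tac146 ran from 8.58e-05 (DESeq2) to 0.0645, and that of Kprp from 0.000219 (DESeq2) to 0.111 (block). With the replicate block, 4 log2 fold changes in Tac146 against B6 turned below 0, those of Lce1k (-0.01), Rptn (-0.02), Tchh (-0.27) and Tchhl1 (-0.56). With 1 library left out, the range spanned 0 for Lce3d (-0.19 to 0.12) and Flg2 (-0.37 to 0.04) in Tac111 against B6, for Lor (-0.18 to 0.05), Tchh (-0.29 to 0.89) and Tchhl1 (-0.61 to 0.65) in Tac146 against B6, and for Ivl (-0.36 to 0.07) and Tchhl1 (-0.03 to 1.22) in Tac111 against Tac146. Over all 36 members, 165 of 1728 alternative values changed sign. Same-numbered libraries did not pair: their deviations correlated at -0.089 to 0.206 over 7 pairs. The cause of these shifts was not tested. The 3 list counts by alternative, and the Sprr2 ratio, were added after the data were seen. With 3 libraries per strain, changes under 2-fold can be missed, as they often were in the simulated data, and reads shared among Lce genes limit single values.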

Other observations

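Of 13 genes that keratinocytes switch on after wounding, a list chosen with earlier results known, 6 fell in Tac111 against Tac146 (46.2%, against 8.89% of all genes, median log2 fold change -0.50, edgeR), namely Krt6b, S100a8, S100a9, Il1f9, Ereg and Serpinb2. S100a9, a subunit of the antimicrobial protein calprotectin whose gene lies in the same cluster as the members, had a mean of 1.54 ± 0.591 CPM in Tac111 and 49.8 ± 39.4 CPM in Tac146 (SD, n = 3), a log2 fold change of -5.01 (edgeR adjusted p = 0.00701). Il1f9, an epithelial cytokine of the interleukin-1 family, stood at 60.3 ± 9.75 CPM in Tac111 and 90.2 ± 13.3 CPM in Tac146, with a log2 fold change of -0.58 (edgeR adjusted p = 0.0315, lost without B6 replicate 2, Tac111 replicates 1 or 2, or Tac146 replicates 3 or 4). S100a8 had -3.30 (edgeR adjusted p = 0.0236, lost without any 1 of the Tac111 libraries). S100a8 and S100a9 are also made by neutrophils, and the part of those cells was not tested. Against B6, edgeR called 0 of 13 in Tac111 (3 at an unadjusted p under 0.05, 1 by DESeq2) and 0 in Tac146 (4 and 1).

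For the counts that follow, edgeR called 3.81% of all genes in Tac111 against B6, 0.303% in Tac146 against B6 and 8.89% in Tac111 against Tac146. Of 14 tested S100 and other genes of the same cluster, 3 fell (S100a8, S100a9 and Pglyrp4) and 1 rose (S100a6) in Tac111 against Tac146, and S100a6 rose in Tac111 against B6. Of 10 basal keratinocyte genes, Col17a1 and Lama3, which anchor basal cells, fell in Tac111 against Tac146 (-0.39 and -0.79, edgeR adjusted p = 0.0484 and 0.0422). These calls held in 5 and 7 of 16 alternatives. That of Col17a1 was lost without any 1 library other than Tac111 replicate 1, and that of Lama3 without any 1 library other than Tac111 replicate 1 or Tac146 replicate 2. Of 9 oral keratins, Krt19 rose in Tac111 against Tac146 (1.07, edgeR adjusted p = 0.0165, lost without Tac111 replicate 3) and Krt7 in Tac111 against B6 (0.63, edgeR adjusted p = 0.0499). Both were low, with strain means from 4.2 CPM (Krt19 in Tac146) to 10.6 CPM (Krt7 in Tac111). The abundant Krt4 and Krt13 were not called, and their summed mean was 59223 CPM in Tac111, 73076 in Tac146 and 69429 in B6. The call of Krt7 held in 6 of 16 alternatives, with an adjusted p up to 0.134, and was lost without any 1 library other than Tac111 replicate 1 or Tac146 replicate 4. Of 11 sebaceous gland genes, 3 (Awat1, Awat2 and Dgat2l6) rose in Tac111 against Tac146, and of 10 skeletal muscle genes, with a median log2 fold change of 0.46, edgeR called 0 in it (6 at an unadjusted p under 0.05, 5 by DESeq2). Of 4 tested salivary and mucous gland genes, Aqp5 and Krt7 (also counted among the oral keratins) rose in Tac111 against B6. Lpo rose in Tac146 against B6, and in Tac111 against Tac146 1 gene rose and 1 fell. Of 8 tested T cell genes, 6 fell in Tac111 against B6, 5 in Tac146 against B6 and 3 in Tac111 against Tac146. Of 6 tested ILC1 and natural killer cell genes, 5 fell in Tac111 against B6 and against Tac146, and edgeR called 0 in Tac146 against B6 (1 at an unadjusted p under 0.05, 0 by DESeq2).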
